A study of Mus musculus with 217 samples.

Results

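The chains of collagen, the chains of laminin and the nidogens were followed in the translatome of endothelial cells (ECs) from mouse brain, lung and heart, at baseline and after injection of bacterial lipopolysaccharide (LPS). The members are all genes with a collagen or laminin chain symbol together with Nid1 and Nid2, which gave 57 of the 52550 genes counted. They comprise 44 collagen chain genes, 11 laminin chain genes and 2 nidogen genes. The rule uses gene symbols and no measured level, and was set with earlier results of these data known. Every mouse carried an inducible Cre driven by the VE-cadherin gene and an HA-tagged ribosomal protein (Cdh5CreERT2/+; Rpl22HA/+, called RiboTagEC). All of the mice, controls included, received 5 mg of tamoxifen by gavage 4 times at an age of 4 to 6 weeks. LPS was given intraperitoneally at 10 mg/kg, and tissue was taken after 6, 24, 48, 72 or 168 hr. Control mice, called 0 hr, were given PBS. Whole tissue was homogenised and RNA on tagged ribosomes was pulled down with an antibody against HA, so that what is measured is RNA bound to ribosomes in cells where the Cre had recombined, with whatever other RNA came along.

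Counts of the runs of a library were summed, and the 18 libraries of the 98 with under 3% of reads on genes were left out. The 80 libraries kept hold 5, 5, 4, 6, 4 and 4 brain samples at 0, 6, 24, 48, 72 and 168 hr, 4, 4, 2, 6, 4 and 4 lung samples, and 5, 5, 4, 6, 4 and 4 heart samples. Total counts ran from 7226796 to 32891759 in brain, from 284457 to 43417945 in lung and from 8136031 to 33050750 in heart. Endothelial markers (10 genes, Pecam1 and Cdh5 among them) were counted in every tissue, with summed levels at 0 hr of 1709 to 3481 counts per 1000000 counts (CPM) in brain, 11630 to 16165 in lung and 9071 to 10474 in heart. Markers of other cells were also present. In brain the 8 markers of meninges and choroid plexus summed to 15961 to 65255 CPM at 0 hr, in lung the 10 epithelial markers to 6490 to 12596 CPM, and in heart the 8 cardiomyocyte markers to 3913 to 7981 CPM. Fewer cells of a type and less RNA per cell cannot be told apart in such bulk samples.

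Some libraries went against their labels or stood apart. The libraries labelled brain 6 hr replicate 6, heart 6 hr replicate 5 and heart 72 hr replicate 1 had Saa3, an acute-phase gene, at log2 CPM of 0.24, 0.08 and −0.40, where the other LPS libraries of their groups had 10.38 to 10.57, 9.58 to 10.19 and 6.06 to 6.96. The 0 hr libraries ran from −2.51 to 0.78 in brain and from −1.94 to −1.09 in heart. Across Saa3 and 5 other genes known to respond to LPS (Lcn2, Selp, Icam1, Ccl2 and Socs3), each of the 3 libraries lay below the other LPS libraries of its group, but not always within the 0 hr range. Lcn2 was at 8.18 in the brain library (2.46 to 5.22 at 0 hr), and Lcn2 and Selp were at 5.55 and 2.72 in the heart 6 hr library (0 hr maxima of 4.31 and 2.15). Selp and Ccl2 were at 2.82 and 3.53 in the heart 72 hr library (0 hr maxima of 2.15 and 3.06). The library labelled lung 6 hr replicate 4 held only 284457 counts with 3.40% of its reads on genes, and had Saa3 at 6.85, where the other 6 hr lung libraries had 12.21 to 14.28 and the 0 hr ones 1.58 to 6.60. The 3 libraries of 6 hr among these carry the same tag in their file names. Such tags, read here as mouse numbers, differ between the libraries of a group, and 28 of 29 occur in more than 1 tissue, so that by these tags most mice gave libraries of several tissues. Counts of members called after LPS are given with all libraries and, as a choice made after the data were seen, without these 4, and a called gene's value without them is given where the call changed or the value moved by over 1.5 times. Of 74 member calls after LPS, 74 stood without the 4.

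Basement membranes are thin sheets of extracellular matrix on which endothelial cells sit and which separate them from pericytes, astrocytes, muscle or epithelium. Their scaffold is made of a laminin polymer, in which every molecule joins an alpha, a beta and a gamma chain, and of a collagen IV network, and nidogens bridge the laminin and collagen layers. Laminins with the alpha chains of Lama4 and Lama5 are those known from vessel walls. Fibrillar collagens such as collagen I and III form the tensile fibres of connective tissue, whereas collagen VI makes beaded microfilaments next to basement membranes.

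The genes of collagen IV lie in pairs that face away from each other, and the sequence at their starts is shown because the paired genes are compared throughout. On mm10, Col4a1 lies on the minus strand of chr8:11198423-11312826 and Col4a2 on the plus strand of chr8:11312805-11449287, so that the annotated genes overlap by 22 bases. Col4a4 (minus strand, chr1:82448423-82586849) and Col4a3 (plus strand, chr1:82586921-82722059) are 71 bases apart, and Col4a6 and Col4a5 on the X chromosome are 1308 bases apart. RefSeq start windows, which reach from 250 bases before to 50 bases after a start on GRCm38.p6, were at hand for 41 of the 57 genes (45 windows). The windows of Col4a1 (chr8:11312777-11313076, minus strand) and Col4a2 (chr8:11312555-11312854, plus strand) share 78 bases, given in capitals and read on opposite strands. In the window of Col4a4 (chr1:82586800-82587099, minus strand) capitals mark the 71 bases between the annotated starts of Col4a4 and Col4a3. The window of Col27a1 (chr4:63215162-63215461, plus strand), the gene of a fibrillar collagen with the largest fitted rise among the members in heart after LPS, is shown with a match of the NF-kB motif in capitals.
Col4a1: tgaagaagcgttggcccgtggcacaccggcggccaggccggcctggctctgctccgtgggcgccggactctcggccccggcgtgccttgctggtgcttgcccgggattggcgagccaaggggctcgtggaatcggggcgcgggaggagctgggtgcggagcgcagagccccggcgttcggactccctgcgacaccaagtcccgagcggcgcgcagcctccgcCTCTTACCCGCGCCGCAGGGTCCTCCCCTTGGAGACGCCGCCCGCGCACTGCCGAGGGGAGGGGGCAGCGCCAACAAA
Col4a2: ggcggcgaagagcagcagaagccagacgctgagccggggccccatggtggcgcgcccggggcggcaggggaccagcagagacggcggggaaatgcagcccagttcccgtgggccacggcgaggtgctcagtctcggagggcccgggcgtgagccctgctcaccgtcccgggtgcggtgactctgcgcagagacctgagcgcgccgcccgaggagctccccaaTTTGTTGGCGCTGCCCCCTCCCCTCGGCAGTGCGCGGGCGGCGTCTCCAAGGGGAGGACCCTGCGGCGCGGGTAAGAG
Col4a4: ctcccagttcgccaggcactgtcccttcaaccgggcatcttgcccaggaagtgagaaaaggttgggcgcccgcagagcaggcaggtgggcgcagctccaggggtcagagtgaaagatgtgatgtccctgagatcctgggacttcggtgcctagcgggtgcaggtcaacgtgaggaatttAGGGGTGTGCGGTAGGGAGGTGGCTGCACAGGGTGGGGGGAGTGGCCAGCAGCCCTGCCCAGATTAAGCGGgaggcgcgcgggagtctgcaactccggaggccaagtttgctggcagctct
Col27a1: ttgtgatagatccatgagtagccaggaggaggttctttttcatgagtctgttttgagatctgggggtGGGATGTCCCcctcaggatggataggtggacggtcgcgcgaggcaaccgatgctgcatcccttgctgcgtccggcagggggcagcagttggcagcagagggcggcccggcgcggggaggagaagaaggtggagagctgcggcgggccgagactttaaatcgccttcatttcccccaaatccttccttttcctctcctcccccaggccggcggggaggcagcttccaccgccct

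Motif letters were searched on both strands, and matches of different motifs were counted even where they shared bases. The GC box GGGCGG was in 27 of the 45 member windows (60.0%) and in 35.7% of all 32851 windows, CCAAT in 33.3% and 37.4%, and TATAAA in 11.1% and 13.6%. The NF-kB motif was in 9 member windows (20.0%) against 8.46% of all, and the STAT motif TTCNNNGAA in 6.7% against 8.3%. The Col4a2 window held 3 matches of GGGCGG and 1 of NF-kB, the Col4a1 window 1 of GGGCGG, and each of the pair 1 CCAAT. The Col27a1 window held 2 matches of GGGCGG, and its NF-kB match reads as a match on either strand. None of the searched motifs was in the Col4a4 window, and TATAAA was in none of the 4 shown. The shared Col4a1 and Col4a2 windows were rich in G and C (74.0% and 73.7%, with a median of 52.7% over all windows). A match of letters describes the sequence and is not evidence of binding.

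To ask how the vascular beds differ in their matrix genes at baseline, the 0 hr libraries of a tissue were set against the average of the remaining 2 tissues in edgeR, with a quasi-likelihood F test and Benjamini-Hochberg adjusted p-values over all genes tested. Genes with an adjusted p under 0.05 are called higher or lower, p-values measure only the spread between the samples, and fold changes are log2 values with their standard error (SE). Of the members, 53 passed the filter on low counts, and Col6a5, Col9a1, Col10a1 and Col19a1 did not. In brain 24 members were higher and 12 lower, when 35.1% of all genes tested were called higher and 23.4% lower (58.5% in all). Lung had 14 higher and 22 lower, against 28.0% and 34.4% of all genes (62.4% in all), and heart 17 higher and 26 lower, against 27.7% and 30.5% (58.2% in all). The members' median log2 fold changes were 1.10 (brain), −0.90 (lung) and −0.87 (heart), with all-gene medians of 0.22, −0.35 and −0.07. Levels are compared between genes as CPM per kilobase of exon. By that measure 31 members were highest in brain, 9 in lung and 17 in heart, and of these 20, 7 and 11 were above the next tissue in the pairwise test. The same count over all genes is not given here, and of all genes 35.1%, 28.0% and 27.7% were called higher in brain, lung and heart. Between brain and lung that test called 26 members higher and 10 lower in brain (37.9% and 26.4% of all genes, 64.3% in all), between brain and heart 27 and 16 (32.0% and 22.8%, 54.8% in all), and between lung and heart 18 higher and 17 lower in lung (29.9% and 31.2%, 61.1% in all).

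**Figure D1:**
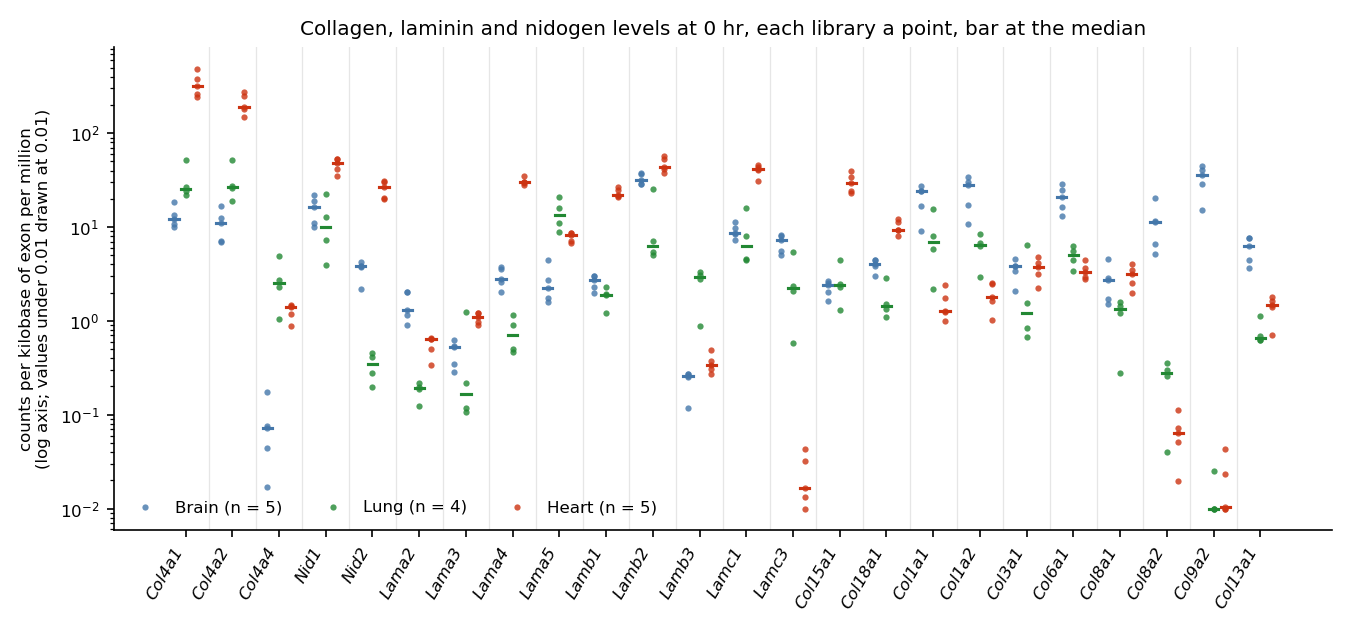
Levels of 24 members at 0 hr as CPM per kilobase of exon on a log axis, with a point for each library and a bar at the median of each tissue. Col4a1 in heart lies between 243 and 484, above every lung (22.0 to 52.1) and brain (10.1 to 18.6) library, and Col9a2 is seen almost only in brain.

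The collagen IV network genes Col4a1 and Col4a2 were the leading members in the heart libraries. Col4a1 was at 484, 243, 375, 322 and 262 CPM per kilobase in the 5 heart libraries, at 22.0, 24.3, 26.7 and 52.1 in the 4 lung libraries, and at 10.8, 10.1, 12.1, 13.6 and 18.6 in the 5 brain libraries. The tissues did not overlap, and heart was above lung and lung above brain in the pairwise tests. Against the mean of the other tissues Col4a1 was higher in heart by 4.09 ± 0.27 (edgeR adjusted p = 2.4e-08) and differed in brain by −3.03 ± 0.31 (edgeR adjusted p = 5.86e-07). Col4a2 followed the same order, with means of 208 ± 51.0 (SD, n = 5) in heart, 31.1 ± 14.4 (n = 4) in lung and 10.8 ± 4.10 (n = 5) in brain. The pair made up 62.2% of all member counts in heart, 33.3% in lung and 9.88% in brain. The order held within both library series that have 0 hr samples. Mean log2 CPM of Col4a1 in brain, lung and heart was 6.29, 7.98 and 11.32 in series 1, and 6.76, 7.57 and 11.21 in series 2.

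The log2 ratio of Col4a1 to Col4a2 per kilobase lay between −0.53 and 1.19 in the 80 libraries, with medians of 0.46 (brain), 0.00 (lung) and 0.76 (heart). It was not constant, with medians of 0.72 at 0 hr and 0.26 at 6 hr in heart and a range of −0.53 to 1.05 in lung at 6 hr. Their paralogues, which form the collagen IV network of the kidney glomerulus and lung alveolus (Col4a3, Col4a4 and Col4a5) and of smooth muscle and other epithelia (Col4a5 and Col4a6), were far lower in heart and lung. In brain the gap was smaller, with Col4a5 at a mean of 3.17 CPM per kilobase and Col4a2 at 10.8. Col4a4 was highest in lung, at 4.97, 2.75, 2.29 and 1.05 CPM per kilobase, was at 0.891 to 1.48 in heart and at 0.0169 to 0.175 in brain. Lung exceeded the mean of the others by 3.27 ± 0.38 (edgeR adjusted p = 4.8e-06). Col4a5 (3.17 ± 0.997, SD, n = 5) and Col4a6 (1.68 ± 0.476) were highest in brain, each above the next tissue.

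The shares of the laminin alpha chains differed between the tissues. In heart, Lama4, the alpha chain of laminin 411, was at 34.9, 29.3, 28.1, 29.9 and 30.4 CPM per kilobase, while brain libraries ran from 2.04 to 3.72 and lung libraries from 0.469 to 1.15. The difference of 4.48 ± 0.18 had the smallest adjusted p of the laminin genes in heart (edgeR adjusted p = 4.51e-10). Lama4 took 73.3% to 78.2% of the alpha chain signal per kilobase in the heart libraries, and 2.7% to 7.8% in lung. Lama5, the alpha chain of laminin 511, was highest in lung at 20.7, 16.1, 11.0 and 8.92, above heart (6.82 to 8.70) and brain (1.58 to 4.49). The fitted difference was 1.71 ± 0.26 (edgeR adjusted p = 6.08e-05), and Lama5 held 77.3% to 93.2% of the alpha chain signal in lung.

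In the brain libraries Lama4 held a median of 31.6%, Lama1 25.9%, Lama5 23.4% and Lama2 14.7% of the alpha chain signal. In the same libraries 9 of the 10 endothelial markers were lower than in the other tissues, with a sum of 1709 to 3481 CPM, while markers of meninges and choroid plexus summed to 15961 to 65255 CPM and glia markers to 1099 to 7133 CPM. The part of such cells in the brain shares was not tested. Lama1, an early embryonic and epithelial alpha chain that is not in the list of genes named by rule, was chosen after its values were seen. It was at 1.69 to 3.50 CPM per kilobase in brain, at 0.0615 to 0.408 in lung and at no more than 0.009 in heart. Lama2, the alpha chain of muscle and glial basement membranes, was also higher in brain (2.14 ± 0.21, edgeR adjusted p = 3.45e-07) and had 0.896 to 2.05 CPM per kilobase there.

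**Figure D2:**
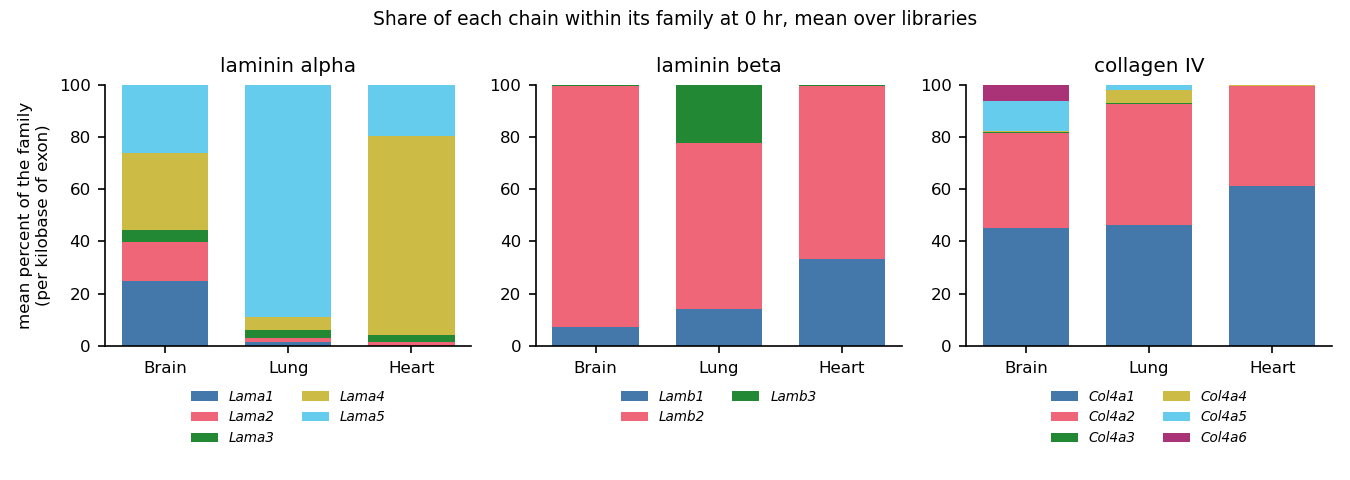
Mean share of each chain in the summed CPM per kilobase of its family at 0 hr, in percent, for laminin alpha and beta chains and for collagen IV (n = 5 brain, 4 lung and 5 heart libraries). Lama4 takes 76.1% of the alpha chains in heart and Lama5 88.7% in lung, and brain divides its alpha chains among several genes.

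Among the gamma chains, Lamc1, the most widely used, was at 40.6, 30.9, 43.5, 45.9 and 41.8 CPM per kilobase in heart, at 7.25 to 11.4 in brain and at 4.48 to 15.9 in lung. Every heart library lay above those of the other tissues, by a fitted 2.30 ± 0.26 (edgeR adjusted p = 3.13e-06), and the difference of brain from lung was not called (0.12 ± 0.31, edgeR adjusted p = 0.754). Lamc3, a gamma chain known from the retina and other neural tissue, was at 8.21, 7.32, 5.56, 8.11 and 5.00 in brain, at 0.578 to 5.39 in lung and at 0.0059 to 0.0431 in heart, and brain exceeded the others by 4.82 ± 0.44 (edgeR adjusted p = 1.88e-07). Lamb3, a beta chain of epithelial basement membranes, was higher in lung by 3.19 ± 0.31 (edgeR adjusted p = 9.03e-07) with 3.11, 2.79, 3.28 and 0.875.

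Lung 0 hr replicate 4 was the lowest lung library in Lamb3, Col4a4, Lama5 and Col6a3. Its epithelial markers were also the lowest, with a sum of 6490 CPM against 10442, 12596 and 9551 CPM in replicates 1 to 3, and 9 of the 9 tested markers were higher in lung, with a range of 1.17 to 54.9 CPM for the sum in heart and 2.15 to 5.51 CPM in brain. Sftpb, the marker not tested, was at 0 in every brain and heart library and also in every lung library from 6 to 72 hr, so that its counts do not tell the tissues apart. Lung 0 hr replicate 4 also had 56.2% of its reads on genes, against 18.8%, 19.2% and 28.6% in replicates 1 to 3. The parts of epithelial RNA and of this difference in the lung levels of Lamb3, Col4a4, Lama5 and Col6a3 were not tested. Of the other beta chains, Lamb2 was at 46.6 ± 7.86 (SD, n = 5) in heart and 32.6 ± 4.21 (n = 5) in brain, which did not differ in the pairwise test, and was lower in lung at 10.8 ± 10.0 (n = 4). Lamb1 was 23.3 ± 2.51 in heart, 2.60 ± 0.459 in brain and 1.83 ± 0.437 in lung. It took 33.4% of the beta chain signal in heart (median) and 7.6% in brain.

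Nidogens and the multiplexins Col15a1 and Col18a1, collagens of the basement membrane zone whose ends are cut into endostatin-like fragments, were highest in heart. Nid1 was at 46.2 ± 7.89 CPM per kilobase in heart (SD, n = 5), 15.7 ± 5.08 in brain and 11.7 ± 8.10 in lung, and the last 2 did not differ. Nid2 was at 25.7 ± 5.31 in heart, 3.57 ± 0.812 in brain and 0.336 ± 0.120 in lung. The lung deficit of Nid2 (−4.80 ± 0.32) and its heart excess (4.58 ± 0.23, edgeR adjusted p = 2.13e-09) were both called. Of the 10 endothelial markers 8 were higher and 1 lower in heart. All 8 cardiomyocyte markers were higher there (median 8.50, sum of 3913 to 7981 CPM), 5 of the 10 fibroblast markers were higher and 2 lower (median 0.45), and 2 of the 10 mural cell markers were higher and 6 lower (median −2.05). The part of these lists in the heart levels of the members was not tested. Col15a1 exceeded the other tissues by 3.69 ± 0.23 in heart (edgeR adjusted p = 1.57e-08) and Col18a1 by 2.02 ± 0.19 (edgeR adjusted p = 7.36e-07). Exons of Lama2, Col4a3, Nid2, Lamc3, Col6a4, Col9a3, Col5a1, Lama3 and Nid1 overlap a gene on the opposite strand by 631, 563, 437, 382, 289, 234, 212, 197 and 143 bases, those of Col4a1, Col4a2, Col6a6, Col10a1, Col15a1 and Col22a1 by 14 to 65, and how reads were counted by strand is not given in the sources used here.

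The members higher in brain included collagens outside the basement membrane network. Of the collagen VI genes 4 of 5 tested were higher and 0 lower, of the fibril-associated collagens 5 of 7 and of the fibrillar collagens 5 of 11 with 2 lower, when 35.1% of all genes were called higher. Col9a2, a chain of the cartilage-type collagen IX, was at 45.3, 36.0, 28.7, 40.2 and 15.4 CPM per kilobase in brain and at 0.0436 or less in every lung and heart library. It had counts of 0 in 3 lung and 2 heart libraries. Col8a2, a short-chain network collagen known from the cornea, was at 20.2, 11.6, 6.61, 11.3 and 5.21 in brain and at 0.0195 to 0.352 elsewhere (6.31 ± 0.44, edgeR adjusted p = 7.94e-09). Col1a1 and Col1a2, the chains of collagen I, were at 20.4 ± 7.40 and 24.1 ± 9.82 in brain, 7.94 ± 5.74 and 6.08 ± 2.30 in lung, and 1.53 ± 0.574 and 1.88 ± 0.627 in heart. Col3a1, the chain of collagen III, was at 3.57 ± 0.940, 2.39 ± 2.76 and 3.62 ± 0.967, and no pair of tissues was called.

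The collagen VI genes differed in the tissue where they were highest. Col6a1 was at 29.0, 21.1, 16.5, 24.8 and 13.3 CPM per kilobase in brain, at 3.39 to 6.22 in lung and at 2.78 to 4.47 in heart, and Col6a2 at 16.8, 11.3, 9.03, 15.3 and 5.72 in brain against 1.36 to 2.58 and 1.18 to 1.93. Brain exceeded the others by 2.28 ± 0.22 for Col6a1 and 2.64 ± 0.25 for Col6a2 (edgeR adjusted p = 2.79e-07 and 2.74e-07), and every brain library lay above every lung and heart library. Col6a3, the third chain of the same collagen, was instead highest in lung, at 2.64, 2.46, 1.49 and 0.889, by 1.55 ± 0.29 (edgeR adjusted p = 0.000361), and lung replicate 4 lay within the brain range of 0.393 to 1.04. Col5a1, a fibril-forming chain of collagen V, was lower in heart (0.824 ± 0.132, SD, n = 5) than in brain (1.64 ± 0.436) and lung (1.66 ± 0.455), by a fitted −0.92 ± 0.23 (edgeR adjusted p = 0.00335), and was not called at any time after LPS in brain, lung or heart.

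Col13a1, a transmembrane collagen, was likewise higher in brain (2.43 ± 0.26, edgeR adjusted p = 1.21e-06), with 3.67 to 7.67 CPM per kilobase against 0.701 to 1.79 in heart and 0.628 to 1.13 in lung. Markers of other cells were also compared between brain and the other tissues at baseline. Of the 10 fibroblast markers 4 were higher in brain and 3 lower, and of the 9 leukocyte markers tested 5 were higher and 2 lower. All 8 markers of meninges and choroid plexus were higher in brain with a median log2 fold change of 9.42, none of the 8 was at 0 in all brain samples, 7 of 8 neuron markers and 8 of 9 glia markers were also higher (medians of 10.40 and 8.06), and 9 of the 10 endothelial markers were lower there with a median of −2.04. The part of such cells in the brain levels was not tested.

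To follow the course of inflammation, each time after LPS was compared with 0 hr of the same tissue. In brain, 56 of the 57 members passed the filter and Col10a1, with 54 counts in all libraries, did not. At 6 hr 3 members were higher and 0 lower, against 4.21% and 2.23% of all genes (6.44% in all). At 24 hr 5 were higher and 6 lower (6.52% and 4.66% of all genes, 11.2% in all), at 48 hr 4 and 7 (8.11% and 6.12%, 14.2% in all), and at 72 hr 2 and 1 (2.98% and 0.546%, 3.53% in all). The members' share was 5.36%, 19.6%, 19.6% and 5.36%. Without the 4 libraries that stand apart the counts were 4 and 9, 5 and 8, 4 and 8, and 2 and 1, with 14.3%, 13.4%, 15.9% and 4.93% of all genes called. At 168 hr edgeR called 0 members, with 1 at an unadjusted p under 0.05 and 0 by DESeq2 and by limma-voom, and 0.0% of all genes.

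**Figure D3:**
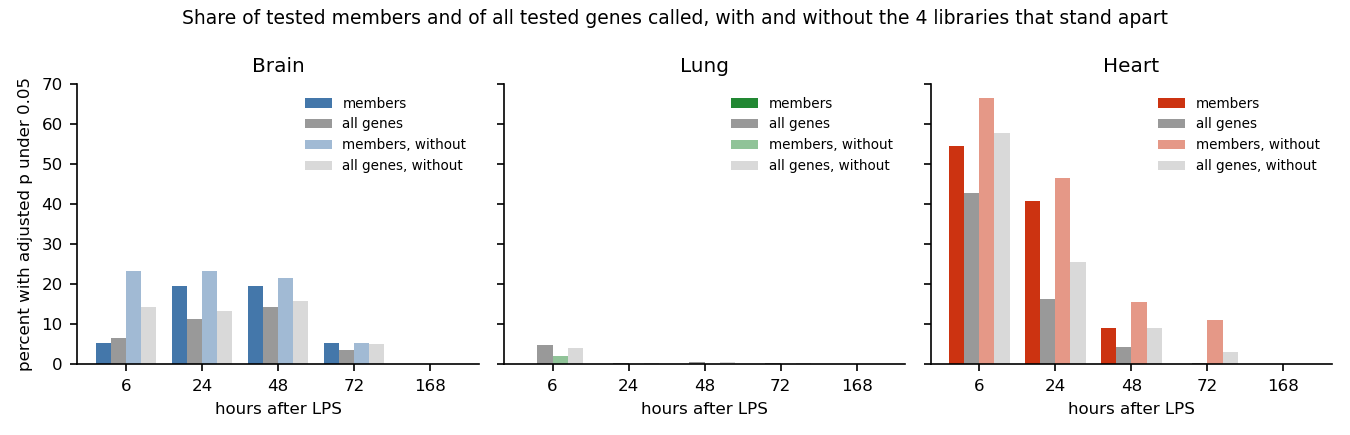
Share of members and of all tested genes called after LPS, in percent, by tissue and time, with all kept libraries and without the 4 that stand apart. The shares of members at 6 hr in heart (54.5%) and at 24 hr in heart (40.9%) compare with 42.8% and 16.2% of all genes, the 18 members called at 24 hr became 3 to 14 when 1 library was left out, and the lung bars of the members are at 0 with all libraries.

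The pair Col4a1 and Col4a2 rose in the brain libraries at 6, 24, 48 and 72 hr. Log2 CPM of Col4a1 was 6.34, 6.24, 6.50, 6.67 and 7.12 at 0 hr, and 7.68, 8.96, 8.27 and 8.55 at 6 hr with 6.12 in the library labelled replicate 6. It was 8.37, 8.60, 9.10 and 9.29 at 24 hr, and ran from 8.58 to 9.45 over 6 libraries at 48 hr. Every 24 and 48 hr library lay above every 0 hr library, whereas replicate 6 at 6 hr lay just below the 0 hr range and replicate 1 at 72 hr (6.63) within it. The fitted change was 1.48 ± 0.36 at 6 hr (edgeR adjusted p = 0.0112), 2.08 ± 0.40 at 24 hr (edgeR adjusted p = 0.0019), 2.34 ± 0.36 at 48 hr (edgeR adjusted p = 0.000263) and 1.44 ± 0.37 at 72 hr (edgeR adjusted p = 0.0277).

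By 168 hr Col4a1 was at 6.42, 6.94, 6.73 and 6.89 log2 CPM, inside the 0 hr range, with a fitted difference of 0.06 ± 0.40. Col4a2 changed by 1.43 ± 0.33, 2.04 ± 0.37, 2.09 ± 0.34 and 1.34 ± 0.35 at 6, 24, 48 and 72 hr, with edgeR adjusted p of 0.00845, 0.00129, 0.000392 and 0.0291. Without the 4 libraries the 6 hr changes were 1.82 for Col4a1 and 1.76 for Col4a2. The pair went from 9.88% of the member counts at 0 hr to 32.2%, 35.6%, 37.2% and 27.6%, and was at 6.59% at 168 hr. The calls at 6, 24 and 48 hr stood whichever library was left out, and those at 72 hr stood only without 0 hr replicate 5 or 72 hr replicate 1, with an adjusted p of up to 0.158 for Col4a1 and 0.143 for Col4a2 otherwise. Within library series 1 the Col4a1 differences at 6, 24, 48 and 72 hr were −0.17, 2.08, 2.58 and 2.06, and within series 2 they were 1.60, 1.84, 2.09 and 0.64. The series 1 value at 6 hr rests on the library that stands apart.

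**Figure D4:**
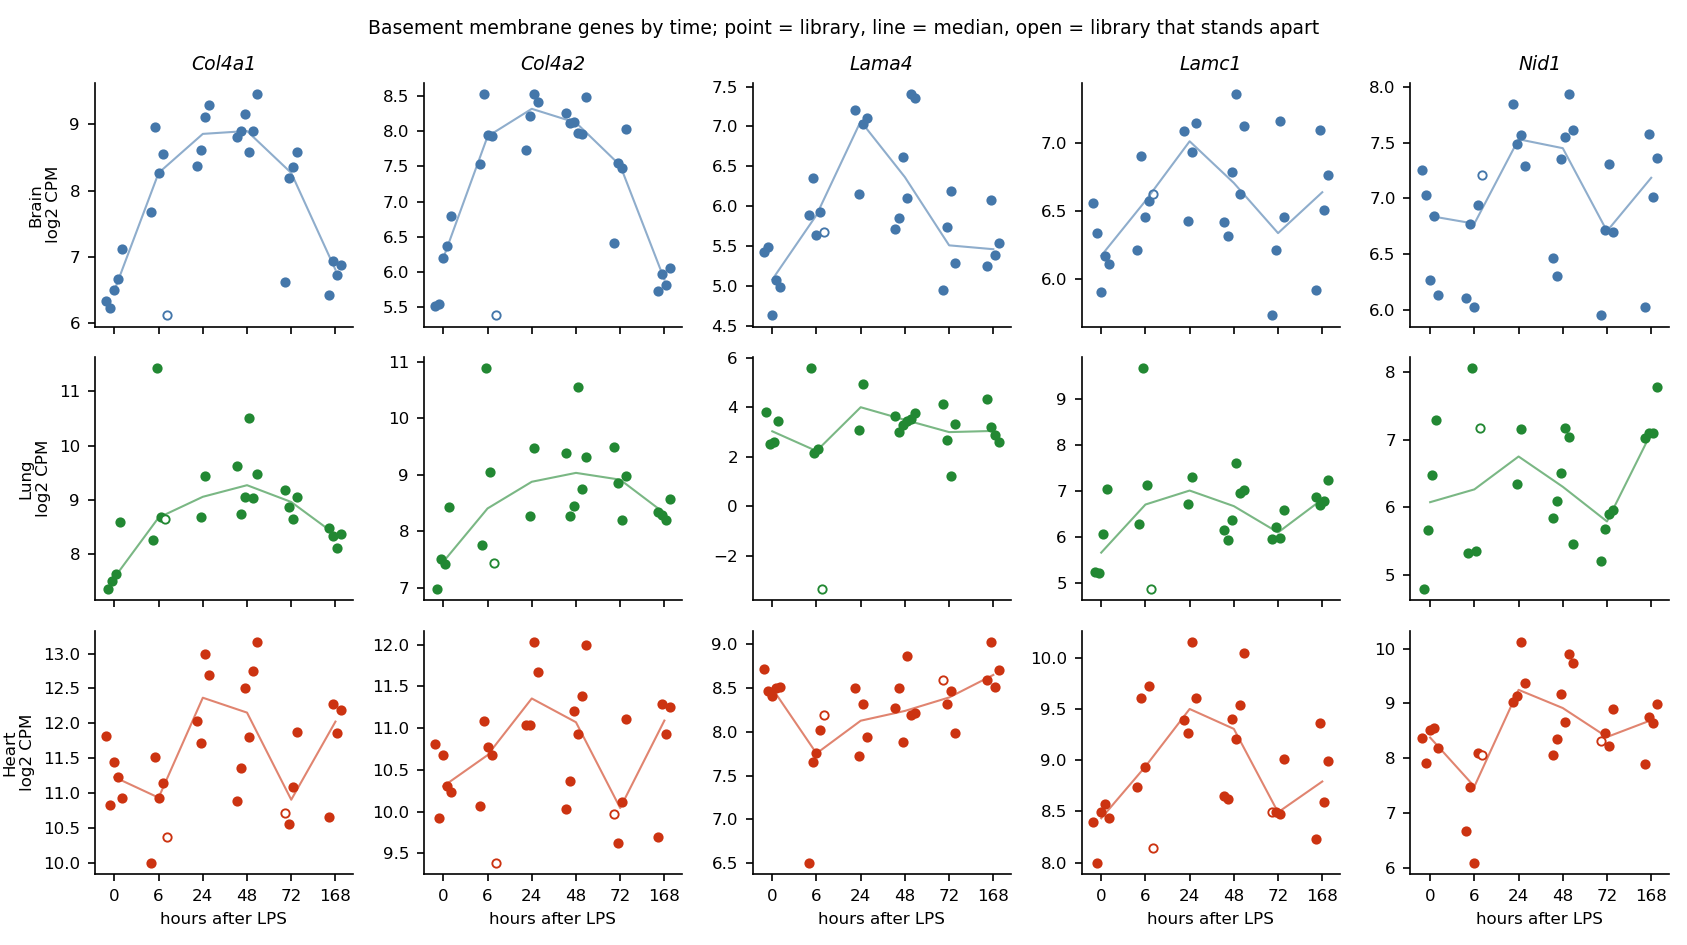
Log2 CPM of Col4a1, Col4a2, Lama4, Lamc1 and Nid1 in brain, lung and heart at 0, 6, 24, 48, 72 and 168 hr after LPS, with a point for each library, open points for the 4 libraries that stand apart and lines through the group medians. Col4a1 in brain runs from 6.24 to 7.12 at 0 hr and from 8.37 to 9.45 at 24 and 48 hr, and is back between 6.42 and 6.94 at 168 hr.

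Among the laminin chains in brain, Lama4 rose. Its log2 CPM was 5.43, 5.49, 4.63, 5.08 and 4.98 at 0 hr, 5.89, 6.36, 5.63, 5.93 and, in the library labelled replicate 6, 5.67 at 6 hr, and 7.21, 6.16, 7.03 and 7.11 at 24 hr. All libraries at 6, 24 and 48 hr (5.71 to 7.41) lay above those at 0 hr. The changes were 0.91 ± 0.27 (edgeR adjusted p = 0.0385), 1.45 ± 0.29 (edgeR adjusted p = 0.00288) and 1.27 ± 0.27 (edgeR adjusted p = 0.00408). The 6 hr call stood only without 6 hr replicate 3 or replicate 6, with an adjusted p of up to 0.124 otherwise, and the calls at 24 and 48 hr stood whichever library was left out. Lama4 thereby went from a median of 31.6% of the alpha chain signal at 0 hr to 63.8%, 73.0% and 58.3%, and stood at 39.5% at 72 hr and 32.0% at 168 hr.

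Lamc3, a gamma chain, fell in brain at 24 hr by 1.54 on the log2 scale (SE 0.47, edgeR adjusted p = 0.0363), from 5.65, 5.48, 5.09, 5.63 and 4.93 to 4.18, 3.40, 3.16 and 3.99, with no overlap between the groups. That call stood without 0 hr replicate 3 or 5 or 24 hr replicate 5, and otherwise had an adjusted p of up to 0.127. Lamc1, the widely used gamma chain, differed from 0 hr by 0.45 to 0.52 at 6, 24 and 48 hr and was not called (edgeR adjusted p = 0.255, 0.147 and 0.105).

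Nid1, Nid2, Lama5, Lamb1, Lamb2 and Col18a1 were not called in brain at any time with all libraries. Nid1 differed by 0.04 ± 0.27 at 6 hr and 0.61 ± 0.29 at 24 hr (edgeR adjusted p = 0.962 and 0.174), Lama5 by −0.65 ± 0.38 and −0.11 ± 0.43 (edgeR adjusted p = 0.383 and 0.911), and Lamb1 by −0.02 ± 0.26 and −0.10 ± 0.30 (edgeR adjusted p = 0.989 and 0.878). Lamb2 was at −0.70 ± 0.29 at 6 hr (edgeR adjusted p = 0.176), and without the 4 libraries it was lower by −1.10 (edgeR adjusted p = 0.00921).

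Col8a2, Col9a2, Lamc3, Col4a6 and Col13a1 were among the members that fell in brain. Col8a2 was at 6.50, 5.70, 4.90, 5.67 and 4.55 log2 CPM at 0 hr and at 3.88, 3.52, 2.62 and 2.88 at 24 hr, with no overlap. It fell by 2.10 on the log2 scale at 24 hr (SE 0.62, edgeR adjusted p = 0.0307) and by 1.66 at 48 hr (edgeR adjusted p = 0.0336). At 6 hr it was at 3.00, 2.12, 2.59 and 2.98, and at 5.98 in the library labelled replicate 6, and the change passed the test only without the 4 libraries (−2.73, edgeR adjusted p = 0.000372). Col9a2 fell by 1.23 at 24 hr (SE 0.38, edgeR adjusted p = 0.0364) and by 1.57 at 48 hr (SE 0.34, edgeR adjusted p = 0.00427), from 5.58 to 7.13 log2 CPM at 0 hr to 4.30 to 5.86 at 48 hr, where only 0 hr replicate 5 lay within the 48 hr range.

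Col4a6, a collagen IV chain, fell by 1.91 at 24 hr (edgeR adjusted p = 0.0348) and by 1.48 at 48 hr (edgeR adjusted p = 0.0366), the opposite direction to Col4a1 and Col4a2. Col15a1 fell by 2.34 at 24 hr (SE 0.68, edgeR adjusted p = 0.0285), from 3.39 to 4.09 log2 CPM to 1.80, 1.04, 1.16 and 0.69, with no overlap. Col13a1 fell by 1.27 at 48 hr (SE 0.34, edgeR adjusted p = 0.0153) and Col6a3 by 1.53 (edgeR adjusted p = 0.0404). Of the 24 hr calls, that of Col8a2 stood only without 0 hr replicate 2, 3 or 5, that of Col9a2 only without 0 hr replicate 5, and that of Col4a6 only without 0 hr replicate 3 or 5 or 24 hr replicate 4 (adjusted p of up to 0.101, 0.0962 and 0.131). That of Col15a1 was lost without 0 hr replicate 1 or 24 hr replicate 1, 2 or 5 (up to 0.109). The 48 hr call of Col9a2 stood whichever library was left out, and that of Col13a1 was lost only without 0 hr replicate 4 (edgeR adjusted p = 0.0501). The 48 hr calls of Col8a2, Col6a3 and Col4a6 were lost without 0 hr replicate 1 or 4 or 48 hr replicate 3, 6 or 7, those of Col6a3 and Col4a6 also without 0 hr replicate 2, and that of Col4a6 also without 0 hr replicate 3 (up to 0.0919, 0.0972 and 0.0938).

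Further calls in brain lie outside the rule for named genes and were picked after their values were seen. Col14a1 fell at 24 hr by 2.64 on the log2 scale (edgeR adjusted p = 0.0194), Col22a1 by 1.29 at 48 hr (edgeR adjusted p = 0.00777) and also at 72 hr (edgeR adjusted p = 0.0253), and Col25a1 at 48 hr (edgeR adjusted p = 0.0363). Col5a3, a chain of collagen V, rose at 48 hr by 1.77 ± 0.49 (edgeR adjusted p = 0.0195). Of these calls only that of Col22a1 at 48 hr stood whichever library was left out. Col14a1 lost its call without 24 hr replicate 1 or 2 (adjusted p of up to 0.0998), Col5a3 without 0 hr replicate 1 or 4 or 48 hr replicate 2 (0.0591) and Col22a1 at 72 hr without 0 hr replicate 1 or 2 or 72 hr replicate 3 or 5 (0.121), and Col25a1 kept it only without 0 hr replicate 3 or 5 or 48 hr replicate 1 (0.168). Col3a1 rose at 24 hr by 1.18 ± 0.37 (edgeR adjusted p = 0.0385), with 6.99, 5.51, 7.00 and 6.77 log2 CPM against 4.35 to 5.50 at 0 hr, and kept the call only without 0 hr replicate 4 or 5 or 24 hr replicate 2 (adjusted p of up to 0.104). The 10 fibroblast markers summed to 341 to 1059 CPM at 0 hr and to 1231 to 4328 CPM at 24 hr, where 2 were higher and 1 lower and the median log2 fold change of the list was −0.69, opposite in sign to the sum. The meninges and choroid plexus markers summed to 15961 to 65255 CPM at 0 hr, to 16748 to 38436 CPM at 24 hr with 2 of 8 lower, and to 5986 to 26326 CPM at 48 hr with 4 of 8 lower. The part of these lists in the rise of Col3a1 and in the falls of Col8a2, Col9a2, Lamc3 and Col13a1 was not tested.

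The endothelial markers of brain summed to 1709 to 3481 CPM at 0 hr and to 932 to 2397 CPM at 6 hr, with 1 of 10 higher and 5 lower. At 24 hr the sum was 2062 to 3940 CPM with 0 higher and 1 lower, at 48 hr 2913 to 5201 CPM with 2 higher and 0 lower, and at 72 hr 3347 to 5452 CPM with 4 higher and 0 lower. Of the 9 leukocyte markers tested 6 were higher and 1 lower at 48 hr, with a sum of 75.3 to 353 CPM against 22.4 to 96.0 CPM at 0 hr. Neuron markers summed to 1261 to 5313 CPM at 0 hr and 614 to 2861 CPM at 48 hr with 1 of 8 lower. Mural cell markers summed to 166 to 2600 CPM at 0 hr and 185 to 3350 CPM at 6 hr. At 24 and 48 hr they summed to 172 to 296 CPM and 73.8 to 1856 CPM, and 0 of the 10 were called at 6, 24 or 48 hr. Col4a1, Col4a2 and Lama4 rose at 6 hr, when 5 of the 10 endothelial markers were lower, and at 24 and 48 hr, and the part of these lists in the rise at any of these times was not tested.

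Heart had the most calls among the members at 6 and 24 hr, and brain had more at 48 and 72 hr. Of 44 members tested, 6 were higher and 18 lower at 6 hr, when 22.4% of all genes were called higher and 20.3% lower (42.8% called in either direction). At 24 hr 5 were higher and 13 lower (9.07% and 7.11% of all genes, 16.2% in all), and at 48 hr 2 and 2 (3.08% and 1.11%, 4.19% in all). The members' share was 54.5%, 40.9% and 9.09% at 6, 24 and 48 hr. Leaving out 1 library at a time gave 13 to 29 calls at 6 hr and 3 to 14 at 24 hr, where the count was 3 without 24 hr replicate 2 and 7 without 24 hr replicate 1. The members' median log2 fold change was −0.75 at 6 hr and −0.94 at 24 hr, and that of all genes −0.05 and −0.04. The share of reads on genes was 60.5% to 65.7% in the heart 0 hr libraries. At 6 hr it was 43.7% to 54.8%, with 67.7% in the library labelled replicate 5. The part of this share in the 6 hr calls was not tested. Without the 4 libraries the counts were 7 and 23, 5 and 16, and 3 and 4, with 57.9%, 25.6% and 9.03% of all genes called. At 72 hr edgeR called 0 members with all libraries (5 at an unadjusted p under 0.05, 1 by DESeq2, 0 by limma-voom, 0.275% of all genes) and 3 higher and 2 lower without the 4 (2.91%). At 168 hr it called 0, with 5 at an unadjusted p under 0.05, 0 by DESeq2 and limma-voom, and 0.0% of all genes.

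The largest rises in heart were in genes with low levels at 0 hr. Col27a1, a fibrillar collagen (chr4:63214004-63334991), and Col22a1, a fibril-associated collagen of tissue junctions (chr15:71795795-72034227, minus strand), lie outside the rule for named genes and were picked after their values were seen. Col27a1 was at 0.89, 1.82, 0.97, 0.55 and 1.58 log2 CPM at 0 hr, at 6.68, 5.42, 7.04 and 4.94 at 6 hr, and at 1.22 in the library labelled replicate 5. At 24 hr it was at 2.93, 3.32, 3.44 and 3.27. It rose by 4.67 ± 0.68 at 6 hr (edgeR adjusted p = 3.21e-05) and by 1.88 ± 0.64 at 24 hr (edgeR adjusted p = 0.046), and at 48 hr differed by 0.02 ± 0.61. The 24 hr call stood only without 0 hr replicate 2, and otherwise had an adjusted p of up to 0.148.

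Col22a1 was at −0.90, −1.54, −0.57, −1.36 and −1.09 at 0 hr and at 3.34, 4.39, 3.51, 3.32 and, in the library labelled replicate 5, −1.79 at 6 hr. It rose by 4.46 ± 0.64 (edgeR adjusted p = 2.7e-05), and was still higher by 2.63 ± 0.66 at 24 hr (edgeR adjusted p = 0.0123) and by 2.08 ± 0.60 at 48 hr (edgeR adjusted p = 0.0458). Without the 4 libraries the 6 hr changes were 5.26 for Col27a1 and 4.90 for Col22a1, and within library series 2, which holds the other 4 libraries of 6 hr, they were 4.99 and 4.65. The 48 hr call of Col22a1 stood only without 48 hr replicate 2, with an adjusted p of up to 0.113 otherwise.

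Lamc1, the widely used gamma chain, rose in heart by 0.76 ± 0.27 at 6 hr (edgeR adjusted p = 0.0286) and by 0.99 ± 0.30 at 24 hr (edgeR adjusted p = 0.0314). Its log2 CPM was 8.39, 8.00, 8.49, 8.57 and 8.43 at 0 hr, 8.74, 9.61, 8.94, 9.73 and 8.15 (replicate 5) at 6 hr, and 9.39, 9.26, 10.16 and 9.61 at 24 hr. The 24 hr libraries lay above all 0 hr libraries. Its 6 hr call was lost without 0 hr replicate 2 or 5 or 6 hr replicate 2 or 4 (adjusted p of up to 0.0878), and the 24 hr call stood only without 0 hr replicate 3 or 4 or 24 hr replicate 5 (up to 0.0868). Col9a3 (3.25 ± 0.77, edgeR adjusted p = 0.00245) and Col7a1 (1.71 ± 0.62, edgeR adjusted p = 0.0307) were also higher at 6 hr, and were at or below 0.67 log2 CPM in every library of both groups. Col13a1 rose at 24 hr by 1.38 ± 0.42 (edgeR adjusted p = 0.0305), with 4.42, 4.43, 4.54 and 3.92 against 1.73 to 3.06 at 0 hr. It lost the call without 0 hr replicate 1, 2 or 3 or 24 hr replicate 1 or 2 (adjusted p of up to 0.211).

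**Figure D5:**
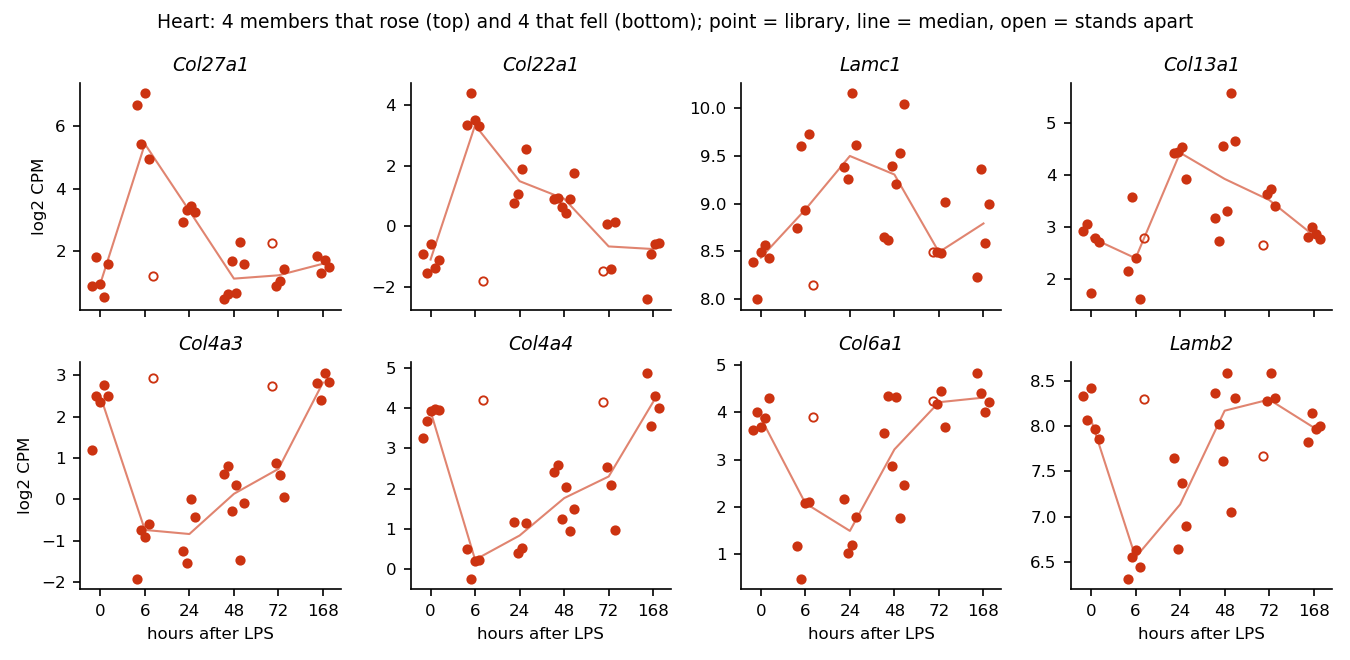
Log2 CPM of 8 members in heart at 0, 6, 24, 48, 72 and 168 hr after LPS, with a point for each library, open points for the libraries that stand apart and lines through the group medians. Col27a1, Col22a1, Lamc1 and Col13a1 (top) rise and Col4a3, Col4a4, Col6a1 and Lamb2 (bottom) fall, and the open points at 6 and 72 hr lie near the 0 hr libraries for Col4a4 and Col4a3.

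The paired genes Col4a3 and Col4a4 fell in heart. Col4a4 was at 3.26, 3.67, 3.92, 3.99 and 3.95 log2 CPM at 0 hr, at 0.51, −0.24, 0.20 and 0.23 at 6 hr with 4.19 in the library labelled replicate 5, and at 1.17, 0.41, 0.52 and 1.15 at 24 hr. By 168 hr it was at 4.87, 3.55, 4.30 and 4.01. Its fall was 1.81 on the log2 scale at 6 hr (SE 0.70, edgeR adjusted p = 0.0395) and 2.73 at 24 hr (SE 0.84, edgeR adjusted p = 0.0325). Without the 4 libraries the 6 hr value was −3.86 (edgeR adjusted p = 6.37e-09) and values of −1.69 at 48 hr and −1.64 at 72 hr also passed (edgeR adjusted p = 0.000254 and 0.00674). Col4a3 was at 1.19 to 2.75 at 0 hr, at −1.92, −0.74, −0.92, −0.60 and 2.94 (replicate 5) at 6 hr, and at −1.25, −1.54, 0.01 and −0.43 at 24 hr. Its 6 hr change of −1.62 ± 0.75 was not called (edgeR adjusted p = 0.0832) until the 4 libraries were left out (−3.75, edgeR adjusted p = 5.51e-07), and at 24 hr it fell by 3.09 (SE 0.96, edgeR adjusted p = 0.034). With these left out it was also lower at 48 hr (−2.21, edgeR adjusted p = 0.000339) and 72 hr (−1.77, edgeR adjusted p = 0.0349).

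With all libraries the 6 hr call of Col4a4 stood only without 0 hr replicate 1 or 2 or 6 hr replicate 5, and was otherwise at an adjusted p of up to 0.119. The 24 hr calls stood only without 0 hr replicate 1 or 2 or 24 hr replicate 5 for Col4a4 (up to 0.14) and without 0 hr replicate 1 or 24 hr replicate 4 for Col4a3 (up to 0.152). By contrast Col4a1 and Col4a2 were not called in heart at any time. Col4a1 differed from 0 hr by −0.29 ± 0.32 at 6 hr and by 0.54 ± 0.36 at 24 hr, and Col4a2 by 0.14 ± 0.31 and 0.57 ± 0.35. At 24 hr every Col4a2 library lay above every 0 hr library, whereas those of Col4a1 overlapped. The pair made up 62.2% of the heart member counts at 0 hr and 75.8% at 24 hr.

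All 4 collagen VI genes tested were lower in heart at 6 and at 24 hr, when 20.3% and 7.11% of all genes were called lower. At 6 hr 9 of the 10 endothelial markers were lower too, and at 24 hr 0 were called. Col6a1 was at 3.62, 4.02, 3.69, 3.88 and 4.30 log2 CPM at 0 hr, at 1.17, 0.48, 2.08, 2.11 and 3.91 (replicate 5) at 6 hr, and at 2.17, 1.02, 1.20 and 1.80 at 24 hr. It fell by 1.57 on the log2 scale (SE 0.44, edgeR adjusted p = 0.00735) and by 2.05 (SE 0.54, edgeR adjusted p = 0.0155), and the 6 hr value was −2.35 without the 4 libraries. Col6a2 fell by 1.60 and 1.67 (edgeR adjusted p = 0.00411 and 0.0257), and Col6a3 by 0.74 and 1.47 (edgeR adjusted p = 0.0408 and 0.00833). At 72 and 168 hr Col6a1 was at 3.69 to 4.45 and 4.00 to 4.84, within or just above the 0 hr range. The 24 hr calls of Col6a1 and Col6a2 were lost without 24 hr replicate 1 or 2 (adjusted p of up to 0.102 and 0.128), and that of Col6a2 also without 0 hr replicate 5. That of Col6a3 was lost without 24 hr replicate 2 (0.0596), and its 6 hr call stood only without 0 hr replicate 3 or 6 hr replicate 4 or 5 (0.0857).

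The fibrillar collagens Col1a1, Col1a2, Col3a1 and Col5a2 fell at 6 hr, by 1.63, 1.17, 1.19 and 1.61 on the log2 scale, with edgeR adjusted p of 0.00458 for Col1a1 and 0.0294 for Col3a1. The values were −1.88, −1.55, −1.30 and −2.66 without the 4 libraries. Within library series 2 the differences were −2.33, −1.91, −1.82 and −3.01, and within series 1, which at 6 hr holds the library labelled replicate 5 alone, they were −0.52, 0.33, −0.51 and 0.67. The call of Col3a1 was lost without 0 hr replicate 4 or 5 or 6 hr replicate 1, 2 or 3 (adjusted p of up to 0.0752), and those of the others stood whichever library was left out. Col8a1, a network collagen of vessel walls, fell by 1.30 at 6 hr (SE 0.40, edgeR adjusted p = 0.0121) and 1.88 at 24 hr (SE 0.46, edgeR adjusted p = 0.0106), and its 6 hr value was −2.02 without the 4 libraries. It was at 3.98 to 5.00 at 0 hr, at 2.29 to 2.82 in the other 6 hr libraries with 4.74 in the library labelled replicate 5, and at 2.13 to 2.99 at 24 hr. By 48 hr its libraries had spread to 2.75 to 5.40 log2 CPM, and the change was 0.22 ± 0.39.

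Several laminin and nidogen genes that lead in heart at baseline were lower at 6 hr. Lama4 fell by 0.75 (SE 0.22, edgeR adjusted p = 0.00997), with 6.50, 7.65, 7.75, 8.02 and 8.19 log2 CPM against 8.41 to 8.72 and no overlap. Lamb2 fell by 1.09 (SE 0.29, edgeR adjusted p = 0.00505), with 6.31, 6.55, 6.63 and 6.44 and, in the library labelled replicate 5, 8.30, against 7.86 to 8.43. Nid1 and Nid2 fell by 0.83 each (edgeR adjusted p = 0.0253 and 0.04), and both lost the call without 0 hr replicate 4 or 6 hr replicate 1 or 3, Nid1 also without 0 hr replicate 3 and Nid2 also without 0 hr replicate 1 or 5 (adjusted p of up to 0.0771 and 0.113). Lama3 fell by 1.89 (SE 0.65, edgeR adjusted p = 0.0222, and −3.15 without the 4 libraries), a call that was lost without any of the 6 hr replicates 1 to 4 (up to 0.067).

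Further calls in heart were of members at lower levels. At 6 hr Lama2 fell by 1.01 (SE 0.29, edgeR adjusted p = 0.0086), with 1.86, 1.51, 1.61, 1.85 and 3.17 (replicate 5) log2 CPM against 2.50 to 3.42, and its 24 hr call lay at the threshold (edgeR adjusted p = 0.05) and stood only without 24 hr replicate 4 (up to 0.237). Col23a1, a transmembrane collagen, and Col4a5 fell at 6 hr by 0.91 and 1.18 (edgeR adjusted p = 0.0352 and 0.0472), and Col23a1 stood at −1.52 without the 4 libraries. Both lost the call without any of the 6 hr replicates 1 to 4 or 0 hr replicate 3 or 4, and Col4a5 also without 0 hr replicate 5 (up to 0.117 and 0.121). Col6a6 fell at 6 and 24 hr (edgeR adjusted p = 0.0272 and 0.00896), the first call lost without 0 hr replicate 2 or 6 hr replicate 2, 3 or 4 (up to 0.0726) and the other without 24 hr replicate 2 (0.0719). Its counts were 0 in 2 of the 4 libraries at 24 hr, and those of Col4a6, called lower at 24 hr (edgeR adjusted p = 0.0393), in 3 of the 4. The call of Col4a6 stood only without 0 hr replicate 2 (up to 0.139).

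At 24 hr Col16a1, a fibril-associated collagen, fell by 1.63 (SE 0.44, edgeR adjusted p = 0.0174), from 1.35 to 2.15 log2 CPM to −1.68, −0.33, 0.52 and 0.55, and Col5a3 by 1.33 (SE 0.45, edgeR adjusted p = 0.0446). The call of Col16a1 was lost without 24 hr replicate 1 or 2 (up to 0.121), and that of Col5a3 without any 1 of the 9 libraries (up to 0.178). At 48 hr Col6a3 fell by 1.00 (SE 0.28, edgeR adjusted p = 0.039), a call that stood only without 0 hr replicate 3 or 48 hr replicate 2 or 4 (up to 0.123). The 6 hr call of Col7a1 was lost without 0 hr replicate 3, 4 or 5 or 6 hr replicate 1, 2 or 3 (up to 0.0974). Col7a1, Col9a3, Col5a3, Col6a6, Col16a1 and Col23a1 lie outside the rule for named genes and were picked after their values were seen.

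Of the laminin and nidogen genes that fell at 6 hr, Lamb2 was still lower at 24 hr by 1.05 (SE 0.33, edgeR adjusted p = 0.0369), a call that stood only without 0 hr replicate 1 or 2 or 24 hr replicate 4 (up to 0.155), and Lama4, Nid1 and Nid2 were not called after 6 hr. Every Nid1 library at 24 hr lay above every 0 hr library. Lamb3 fell at 24 and 48 hr by 1.48 and 1.23 (edgeR adjusted p = 0.00769 and 0.0172), and the 48 hr call was lost without 0 hr replicate 2 or 5 (0.0563). Lamb1 and Lama5 were not called in heart with all libraries, and at 6 hr stood at −0.48 ± 0.29 and −0.05 ± 0.28. In the same comparison 9 of the 10 endothelial markers were lower, with a median of −1.06, and their sum went from 9071 to 10474 CPM at 0 hr to 3011 to 9690 CPM at 6 hr. At 24 hr 0 of the 10 were called and the sum was 7571 to 10039 CPM. The fibroblast markers summed to 258 to 569 CPM at 0 hr, 226 to 523 CPM at 6 hr with 2 of 10 lower, and 533 to 983 CPM at 24 hr with 2 higher and 2 lower and a median log2 fold change of −0.36, opposite in sign to the sum. Mural cell markers summed to 155 to 282 CPM at 0 hr and 115 to 139 CPM at 24 hr, with 1 of 10 higher and 4 lower. Cardiomyocyte markers summed to 3913 to 7981 CPM at 0 hr and 3089 to 4790 CPM at 24 hr, with 0 of 8 higher and 2 lower. Of the 7 leukocyte markers tested 3 were higher and 0 lower at 24 hr. The part of these lists in the falls of the members was not tested.

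In lung, 47 members passed the filter and edgeR called 0 of them at every time with all libraries. At 6 hr it called 8 without 6 hr replicate 3 and 1 without the shallow replicate 4. At 6, 24, 48, 72 and 168 hr 12, 1, 4, 2 and 2 had an unadjusted p under 0.05, DESeq2 called 5, 0, 1, 1 and 0, and limma-voom 0. Of all genes edgeR called 2.56% higher and 2.27% lower at 6 hr (4.83% in all), 0.363% and 0.0117% at 24 hr (0.375%), 0.428% and 0.17% at 48 hr (0.598%), 0.17% and 0.0234% at 72 hr (0.193%), and 0.0% and 0.0117% at 168 hr. DESeq2 called 15.1%, 1.54%, 3.51%, 2.17% and 0.193% of all genes at these times. Col4a1 was at 7.36, 7.50, 7.64 and 8.60 log2 CPM at 0 hr, at 8.26, 11.43 and 8.70 at 6 hr with 8.66 in the shallow replicate 4, at 8.68 and 9.44 at 24 hr and at 8.74 to 10.52 at 48 hr. All 24 and 48 hr libraries lay above all 0 hr libraries, yet the fitted differences of 1.30 ± 0.78 and 1.67 ± 0.60 did not pass (edgeR adjusted p = 0.983 and 0.273). The 6 hr difference was 1.78 ± 0.66 (edgeR adjusted p = 0.108).

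Col18a1 came closest in lung. It was at 3.44, 2.96, 3.25 and 4.34 log2 CPM at 0 hr, at 5.00 to 6.44 at 6 hr and at 5.99, 5.72, 5.62 and 6.31 at 72 hr, with no overlap, and the differences were 2.06 ± 0.64 at 6 hr (edgeR adjusted p = 0.0566) and 2.71 ± 0.63 at 72 hr (edgeR adjusted p = 0.0585). At 168 hr it differed by 0.12 ± 0.65. Lamc1 was at 5.22 to 7.04 at 0 hr and at 6.28, 9.69, 7.13 and 4.86 at 6 hr, a difference of 1.87 ± 0.69 (edgeR adjusted p = 0.104) that passed without the 4 libraries (2.38, edgeR adjusted p = 0.0338). The lung genes Lama5 and Lamb3 differed from 0 hr by −0.03 ± 0.67 and −0.58 ± 0.86 at 6 hr, where the library labelled replicate 4 had counts of 0 for both and replicate 2, with 2745503 counts, had 0 for Lamb3. The marker lists of lung also moved at 6 hr. Endothelial markers summed to 11630 to 16165 CPM at 0 hr and to 1960 to 12900 CPM at 6 hr, with 2 of 10 lower. Of the cardiomyocyte markers 3 of 8 were higher, of the glia and the meninges and choroid plexus markers tested 2 of 8 and 2 of 6, and of the leukocyte markers 2 of 10, with a leukocyte sum of 298 to 600 CPM at 0 hr and 0.0 to 6874 CPM at 6 hr. The part of these lists in the lung values was not tested.

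Whether the response differed between the tissues was tested as an interaction over all 80 libraries. The fit takes the libraries as independent, although tissues share mice by the tags in the file names. It was called for 14 of 56 members at 6 hr (18.3% of all genes), 5 at 24 hr (4.11%), 5 at 48 hr (3.55%) and 1 at 72 hr (0.772%). At 168 hr edgeR called 0, with 2 at an unadjusted p under 0.05, and 0.00909% of all genes. With a block for the mouse tag, a choice made after the data were seen, the counts were 6, 5, 2, 1 and 2 (16.1%, 1.98%, 2.78%, 0.468% and 7.77% of all genes), and 4, 3, 1 and 1 members were called in both fits at 6, 24, 48 and 72 hr. These were Col4a1, Col18a1, Col22a1 and Col27a1 at 6 hr, Col6a1, Col15a1 and Col5a3 at 24 hr, and Col18a1 at 48 and 72 hr. Leaving out all libraries of 1 replicate number gave as few as 6 at 6 hr and 0 at 24, 48 and 72 hr, and the count was 0 at 24 hr without the library series covariate. The adjusted p-values that follow are without the block unless it is named. At 6 hr Col4a1 was called (edgeR adjusted p = 0.00459, and 0.0126 with the block), higher in brain by 1.48 and different by −0.29 in heart and 1.78 in lung. Lama4 was called at 6 and 24 hr without the block (edgeR adjusted p = 0.02 and 0.039) and not with it (edgeR adjusted p = 0.0692 and 0.066), rising in brain by 0.91 and 1.45 while it changed in heart by −0.75 at 6 hr and differed by −0.32 at 24 hr. Lamc1 at 6 hr (edgeR adjusted p = 0.035, and 0.128 with the block) stood at 0.45 in brain, 1.87 in lung and 0.76 in heart.

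Col13a1 was called at 6 and 48 hr (edgeR adjusted p = 0.00607 and 0.0119, and 0.0973 and 0.0547 with the block), and at 48 hr it was −1.27 ± 0.34 in brain and 1.26 ± 0.40 in heart (edgeR adjusted p = 0.0761 in heart). Col18a1 differed at 6, 48 and 72 hr (edgeR adjusted p = 0.018, 0.0128 and 0.0382, and 0.0107, 0.023 and 0.0116 with the block), at 72 hr with 0.27 in brain, 2.71 in lung and −0.03 in heart. Col6a1 differed at 24 hr (edgeR adjusted p = 0.0362, and 0.0455 with the block), when it fell in heart by 2.05 and was not called in brain. Of the pair, Col4a2 was not called at 6 hr with all libraries (edgeR adjusted p = 0.0577) and was without the 4 (edgeR adjusted p = 0.0203). Col4a3 and Col4a4 also differed between tissues at 6 hr when the 4 libraries were left out (edgeR adjusted p = 0.000169 and 0.000791) and with the block (edgeR adjusted p = 0.00282 and 0.0314). Col27a1 and Col22a1 differed at 6 hr (edgeR adjusted p = 0.00266 and 0.00146, and 0.00231 and 0.0139 with the block), with −0.55 and −0.11 in brain.

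Genes that act on or bind these proteins were counted from lists made by function. Of 30 genes of collagen modification and secretion, 15 were higher and 5 lower in heart at baseline, 10 and 10 in lung, and 7 and 14 in brain. These are 66.7%, 66.7% and 70.0% of the list, when 58.2%, 62.4% and 58.5% of all genes were called. Pxdn, the peroxidase that crosslinks collagen IV, exceeded the other tissues in heart by 3.60 ± 0.38 (edgeR adjusted p = 1.99e-06), and Serpinh1, the collagen chaperone, by 1.48 ± 0.33 (edgeR adjusted p = 0.00142). After LPS 2, 3, 5 and 2 of the 30 were higher in brain at 6, 24, 48 and 72 hr and 1, 2, 2 and 0 lower, and in heart 2 were higher and 11 lower at 6 hr, 3 and 2 at 24 hr, and 1 and 0 at 48 hr. The share called was 10.0%, 16.7%, 23.3% and 6.67% in brain, against 6.44%, 11.2%, 14.2% and 3.53% of all genes, and in heart 43.3%, 16.7% and 3.33% against 42.8%, 16.2% and 4.19%, close to the background. With the 4 libraries left out 2 were higher and 5 lower of 30 in brain at 6 hr, when 14.3% of all genes were called. In heart 5 and 12 of 29 tested were higher and lower at 6 hr and 3 and 5 at 24 hr, when 57.9% and 25.6% of all genes were called. Lox, the lysyl oxidase that crosslinks collagen, rose in brain by 2.98 ± 0.67 at 6 hr (edgeR adjusted p = 0.00643) and 3.82 ± 0.71 at 24 hr (edgeR adjusted p = 0.00161), and in heart by 1.24 ± 0.47 and 2.70 ± 0.53 (edgeR adjusted p = 0.0362 and 0.00287). Pcolce, an enhancer of procollagen processing, and Plod1, a lysyl hydroxylase, fell in heart at 6 hr by 1.73 and 1.51 on the log2 scale (edgeR adjusted p = 0.000243 and 0.00338). In lung 1 of the 30 was higher and 1 lower at 6 hr (4.83% of all genes called) and 0 were called at 24 to 168 hr, and the lower one, Crtap, lost its call without the 4 libraries (edgeR adjusted p = 0.0419 and 0.069).

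Of 14 other basement membrane proteins, 8 were higher and 4 lower in heart at baseline, 4 and 7 in lung, and 6 and 4 in brain (85.7%, 78.6% and 71.4% of the list, with the same shares of all genes as above). Hspg2, the gene of perlecan, exceeded the others in heart by 3.79 ± 0.40 (edgeR adjusted p = 1.84e-06) and Sparc, a collagen-binding matrix protein, by 3.09 ± 0.41 (edgeR adjusted p = 1.74e-05). In brain after LPS 0, 2, 2 and 3 of the 14 were higher at 6, 24, 48 and 72 hr and 0, 3, 0 and 0 lower, and in heart 2, 1 and 1 were higher and 6, 5 and 1 lower at 6, 24 and 48 hr. The share called was 0.0%, 35.7%, 14.3% and 21.4% in brain, against 6.44%, 11.2%, 14.2% and 3.53% of all genes. In heart it was 57.1%, 42.9% and 14.3%, against 42.8%, 16.2% and 4.19%. In brain 0 were higher and 4 lower at 6 hr, 2 and 4 at 24 hr, 2 and 2 at 48 hr and 3 and 1 at 72 hr without the 4 libraries (14.3%, 13.4%, 15.9% and 4.93% of all genes), and in heart 3 and 7, 1 and 5, and 1 and 2 (57.9%, 25.6% and 9.03%). Tinagl1, a basement membrane protein related to nephritis antigen, rose in both tissues at 24 hr, by 1.30 ± 0.25 in brain (edgeR adjusted p = 0.00217) and 1.84 ± 0.33 in heart (edgeR adjusted p = 0.00169). Of 18 receptors of collagen and laminin, 17 were tested in brain and lung and 16 in heart. Higher and lower in brain were 0 and 1 at 6 hr, 2 and 3 at 24 hr, 4 and 2 at 48 hr and 1 and 0 at 72 hr, and in heart 0 and 7 at 6 hr, 2 and 1 at 24 hr and 2 and 0 at 48 hr. These are 5.88%, 29.4%, 35.3% and 5.88% of the receptors in brain and 43.8%, 18.8% and 12.5% in heart, beside the same all-gene shares. When the 4 libraries were left out, 2 receptors were higher and 7 lower in heart at 6 hr, and 2 and 4 at 24 hr (57.9% and 25.6% of all genes), and in brain 0 and 2 at 6 hr (14.3% of all genes).

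Itga6, the integrin alpha chain of laminin receptors, rose in brain by 1.18 ± 0.22 at 24 hr (edgeR adjusted p = 0.00178) and fell in heart at 6 hr by 1.57 on the log2 scale (SE 0.36, edgeR adjusted p = 0.00179), with −2.39 without the 4 libraries. Itga3, the chain of another laminin receptor, rose at 24 hr in brain (1.24 ± 0.25, edgeR adjusted p = 0.00241) and in heart (2.29 ± 0.47, edgeR adjusted p = 0.00361). The interaction between tissue and time was called at 6 hr for 2 of the 30 modifying genes, 4 of the 14 partners and 0 of the 18 receptors (6.67%, 28.6% and 0.0%, against 18.3% of all genes), and for 6, 5 and 4 without the 4 libraries (24.0% of all genes). In lung 2 of the 14 partners and 2 of the 17 receptors were lower at 6 hr (4.83% of all genes called), and 0 of either were called at 24 to 168 hr. The receptor Bcam lost its call without the 4 libraries (edgeR adjusted p = 0.0373 and 0.0614).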

How the data were processed

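Ribosome-bound RNA, pulled down by the HA tag from RiboTagEC brain, lung and heart, was measured by RNA-seq. The deposited values are raw counts of reads per gene, which the authors made with STAR 2.4.2 and HTSeq 0.6.1 on mm10 per the labels; the annotation release and the strand setting are not given in the sources used here, so that reads of a gene and of a gene overlapping it on the opposite strand cannot be told apart. Of 52550 gene IDs, 52403 were matched to a symbol (GENCODE vM21). The 5 rows that name no gene stayed out of library sizes and tests, and the share of reads on genes, 3.40% to 70.0% in the libraries kept, is the rest.

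Runs of a library were summed. File names show 4 library series, and series was a covariate; series 3, with 18 libraries of 1.73% to 2.75% of reads on genes, was left out. The 0 hr libraries come from series 1 and 2 and the 168 hr libraries from series 1 and 4. Counts per 1000000 (CPM), log2 CPM with a prior count of 2 and CPM per 1000 bases of exon were computed here from the deposited counts. No kept library was identical to another (0 pairs). The labels do not say that replicates came from separate animals. The file names give each library of a group a tag of its own, read here as a mouse number, and p-values measure the spread between these samples.

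Genes were filtered with filterByExpr, scaled by TMM and tested with edgeR 4.0.16 (R 4.3.3), two-sided, with Benjamini-Hochberg adjustment over all genes tested and a threshold of 0.05. The study's methods used ComBat and limma-voom, and limma 3.58.1 and DESeq2 1.42.0 served as alternatives here, beside RLE scaling, no filter, no series covariate, the 2 groups alone, a replicate block, at baseline a block for the mouse number in the file names, and all libraries or those of at least 1000000 counts. Leaving out the 4 libraries that stand apart, and in the test between tissues a block for the mouse number or leaving out all libraries of 1 replicate number, were chosen after the data were seen. The statistics were also tested on simulated data. The members and all gene lists were chosen with earlier results of these data known. Genes named by rule are a list of vascular matrix genes and, where the mean log2 CPM reached 3, the 3 largest positive calls of each tissue at baseline and the 2 largest calls in each direction of each tissue and time after LPS. Others were named after their values were seen. A member that enters the counts and tests is not reported here.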

Additional observations from a re-analysis of the deposited data

Results flagged for a closer look

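Among 350 sets, each of 1 gene in the 4 to 6 libraries of a tissue and time, a single library lay far from the others in 19. This is close to the rate of about 1 in 20 that chance gives, and the sets of different genes share libraries. The libraries that stand apart account for 5 of these. Heart 6 hr replicate 5 was high in Col8a1 (4.74 log2 CPM) and Lamb2 (8.30), heart 72 hr replicate 1 was high in Lama2 (3.65) and low in Lama5 (6.40), and brain 6 hr replicate 6 was high in Col8a2 (5.98).

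The other 14 were spread over the tissues. In brain, replicate 5 was high in Col5a2 (3.94 log2 CPM) and replicate 3 low in Nid2 (3.50) at 0 hr, replicate 2 was low in Col3a1 (5.51) at 24 hr, replicate 4 high in Col1a1 (7.25) at 48 hr, replicate 3 high in Col1a2 (8.21) at 72 hr, and replicate 1 low in Col8a1 (3.91) and Col8a2 (4.75) at 168 hr. In lung, replicate 4 was low in Lamb3 (2.56 log2 CPM) at 0 hr, replicate 2 high in Col4a1 (11.43) at 6 hr, replicate 5 low in Col6a1 (3.49) at 72 hr, and replicate 5 high in Nid1 (7.79) at 168 hr. In heart, replicate 1 was high in Lama5 (6.87 log2 CPM) at 24 hr, replicate 5 high in Lamc1 (9.02) at 72 hr, and replicate 1 high in Col1a1 (3.88) at 168 hr.

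The response to LPS differed between the tissues for these members by edgeR's test of the interaction, with the adjusted p of each without a block for the mouse number. At 6 hr they were Col22a1 (0.00146), Col8a2 (0.00235), Col27a1 (0.00266), Col4a1 (0.00459), Lama2 (0.00495), Col13a1 (0.00607), Col11a1 (0.0093), Col17a1 (0.0122), Lama1 (0.017), Col18a1 (0.018), Lama4 (0.02), Col25a1 (0.0312), Lamc1 (0.035) and Col3a1 (0.0401). At 24 hr they were Col22a1 (0.0148), Col5a3 (0.0324), Col15a1 (0.033), Col6a1 (0.0362) and Lama4 (0.039), at 48 hr Col13a1 (0.0119), Col18a1 (0.0128), Col22a1 (0.0244), Col9a2 (0.0459) and Col12a1 (0.048), and at 72 hr Col18a1 (0.0382). With that block 10 of those at 6 hr, 2 of those at 24 hr and 4 of those at 48 hr were no longer called.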

How the results depend on the processing

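No called fold change of a member changed sign under any alternative run. Of 303 member fold changes past the threshold, 301 kept their side of it with DESeq2, 299 with RLE scaling, 298 without the low-count filter, 275 with limma-voom, 289 without the library series covariate and 274 with a replicate block. With all libraries 23 of 293 lost their call, with only the 2 groups compared 21 of 72, with the mouse number as a block at baseline 14 of 229, and over all fits that left out 1 library 351 of 3926. The mouse number in the file names as a block left all counts of calls at baseline within 1.5 times. RLE moved the median log2 fold change of all genes by over 0.1 in lung at 6 hr (−0.42 with TMM, −0.11 with RLE) and 168 hr (0.00 and 0.15) and between lung and heart at baseline (−0.09 and 0.02). Where a count of called members moved by more than 1.5 times, the cause was not tested. A prior count of 0.5 moved 880 of 1026 group levels by less than 1 SD. Lung libraries held from 284457 counts upward, and the part of depth in the lung calls was not tested.

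For members called after LPS in brain at 6, 24, 48 and 72 hr (3, 11, 11 and 3), the counts were 13, 20, 23 and 9 with no low-count filter. With only the 2 groups compared they were 25, 6 and 6 at 24, 48 and 72 hr. At 6 hr they were 7 by DESeq2, 6 with all libraries and 13 without the 4 libraries that stand apart, and at 72 hr 0 by limma-voom. In lung (0 at every time) the count at 6 hr was 5 by DESeq2, 3 with RLE, 1 with at least 1000000 counts and 1 without the 4 libraries. DESeq2 called 1 at 48 hr and 1 at 72 hr, and at 72 hr the count was 1 with no filter and 1 with only the 2 groups. In heart (24, 18, 4 and 0) it was 12 at 6 hr with only the 2 groups, and at 48 hr 9 by DESeq2, 1 by limma-voom, 9 without the series covariate, 8 with no filter and 7 without the 4 libraries. At 72 hr it was 1 by DESeq2, 1 with no filter and 5 without the 4 libraries.

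For responses that differed between tissues at 24, 48, 72 and 168 hr (5, 5, 1 and 0), the counts were 10, 10, 3 and 1 with no filter, 0, 3 and 0 at 24, 48 and 72 hr without the series covariate, 3 at 48 hr with at least 1000000 counts, and 0 at 72 hr with all libraries. With the mouse number as a block they were 6 at 6 hr (14 without), 2 at 48 hr and 2 at 168 hr.

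Within a tissue, libraries of the same replicate number at different times did not deviate together, since the correlation of their deviations exceeded 0.1 for every pair in none of the comparisons, so the numbers were not taken to pair the samples. Across tissues the replicate numbers do not follow the mouse numbers of the file names, so that a block or omission by replicate number there joins different mice. With a replicate block the counts were 5, 5 and 1 in brain at 6, 24 and 72 hr, 9 and 1 in heart at 24 and 48 hr, and 8 and 3 for the difference between tissues at 24 and 48 hr.

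Leaving out each library in turn gave 35 to 41, 32 to 41 and 40 to 45 members at baseline in brain, lung and heart. In brain it gave 2 to 13 at 6 hr (13 without 6 hr replicate 6), 3 to 11 at 24 hr (3 without 24 hr replicate 1), 5 to 14 at 48 hr (5 without 0 hr replicate 4) and 0 to 3 at 72 hr. In lung it gave 0 to 8 at 6 hr (8 without replicate 3 and 1 without replicate 4) and 0 at the other times. In heart it gave 13 to 29 at 6 hr (14, 15 and 13 without 6 hr replicates 1, 2 and 3), 3 to 14 at 24 hr (3 without 24 hr replicate 2), 1 to 6 at 48 hr and 0 to 1 at 72 hr (1 without 72 hr replicate 1). For the difference between tissues, leaving out all libraries of a replicate number gave 6 to 15 at 6 hr, 0 to 6 at 24 hr, 0 to 3 at 48 hr and 0 to 1 at 72 hr.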
